A study of Homo sapiens with 13 samples.

Results

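The genes described here are targets of the transcription factor p53, among them receptors for the death ligand TRAIL. They were 10 in number: TNFRSF10A, TNFRSF10B, TNFRSF10D, FAS, CDKN1A, GADD45A, SESN1, BBC3, MDM2 and PPM1D. They were picked by name from the 14575 gene names in the files. Of these 10, 9 had reads and all 9 passed the filter on low values. TNFRSF10A had no row and is not analysed here. TNFRSF10D was picked because its reads were higher in the R749H cells, so its values are given below as a description without a test. The other 8 genes were tested.

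p53 is a sequence-specific activator that is kept at a low level by the ubiquitin ligase MDM2 and accumulates when DNA or transcription is disturbed. Its targets arrest the cell cycle, repair DNA, start apoptosis or, as MDM2 and the phosphatase PPM1D do, switch p53 off again. TRAIL and the FAS ligand bind receptors of the tumour necrosis factor family at the cell surface. TNFRSF10A and TNFRSF10B carry a death domain and pass the signal to caspase-8, whereas TNFRSF10C and TNFRSF10D bind TRAIL without a working death domain and are called decoy receptors.

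The cells were human HEK293 Flp-in T-REx lines, derived from embryonic kidney, with an integrated pcDNA5 plasmid for α-amanitin resistant Rpb1, the largest subunit of Pol II. The sample titles call the protein Avitag Rpb1, whereas the source names of the same libraries have B10 in that place, so the tag is not settled. There were 5 replicates of wild-type (WT) Rpb1 and 4 of R749H, a mutation in the funnel domain that slows elongation. Cells of both groups were grown under hygromycin and blasticidin. Expression was induced with doxycycline at 2 µg/ml, for 24 hr per the labels. The methods of the study give a shorter time before the drug. Both groups then received α-amanitin, which blocks the endogenous Pol II, at 2.5 µg/ml for 42 hr. Per those methods doxycycline was kept on during the drug treatment. The wild-type group therefore carried the drug, the inducer and the transgene as well. HEK293 cells carry the adenoviral E1 region, and the E1B protein binds p53.

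In 3' READS each read stands for the 3' end of 1 poly(A) RNA, so a level needs no division by gene length. Levels are given as normalised RPM, the reads per 1000000 reads of the TMM-scaled library. A library held 2479851 to 10135014 reads within 5 kb downstream of a stop codon. Of these libraries, 2 stood apart: wild-type replicate 1 was the smallest, and R749H replicate 3 had few 3' ends seen once, 6.60% of its ends where the other libraries had 30.0% to 36.2%. Results are given without this pair below. The 10 genes with the most reads took 19.9% to 22.1% of a wild-type library and 23.4% to 25.6% of an R749H library. TMM scaling moved the median difference of all 9495 tested genes from -0.38 to -0.07 on the log2 scale, so that every difference below was about that much lower under the authors' scaling alone. Of 9 HEK293 markers, among them KRT8, KRT18, INA, VIM, PAX2, EYA1, NEFM and NEFL, 8 were listed (all but NEFL), PAX2, EYA1 and NEFM with at most 85 reads in all libraries together. Markers of blood cells, endothelium, fibroblasts, hepatocytes and astrocytes had 0 to 11 reads or no row. A 3' end does not report the mutation or the plasmid, so the reads do not check the Rpb1 label. In bulk RNA, fewer expressing cells and less RNA per cell cannot be told apart. The p-values set each difference against the spread between replicate libraries. The mutation goes with the cell line that carries it. An effect of R749H and other differences between the lines therefore cannot be told apart.

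The main 3' ends of the genes listed here carried the usual poly(A) signals. Windows of TNFRSF10B and TNFRSF10D are not shown, so no signal is reported for them. Levels below sum all 3' ends of a gene, and most of its reads lay in its main poly(A) regions. For the other genes with reads, the 30 bases that end at the most used 3' end of each main region are therefore shown. They are from the GRCh37 (hg19) genome in the direction of transcription, and capitals mark the hexamer AATAAA or ATTAAA. Each lies in the annotated 3' UTR and occurs once in the genome.
CDKN1A, chr6:36655079-36655108, plus strand: ggtgctcAATAAAtgattcttagtgacttt
GADD45A, chr1:68153984-68154013, plus strand: tacctacAATAAActggtatgaataattgc
SESN1, chr6:109307647-109307676, minus strand: gtatttttaAATAAAgaagaatttttctcc
BBC3, chr19:47724081-47724110, minus strand: ccttttcAATAAAatcagattggaacagtg
MDM2, chr12:69237936-69237965, plus strand: tgttgaaAATAAAtgattaagaattgtttc
PPM1D, chr17:58741805-58741834, plus strand: tatattcatctAATAAAtcagtgaactgtt
FAS, upstream end, chr10:90774830-90774859, plus strand: gaaaacATTAAAttataatgtttgactatt
FAS, downstream end, chr10:90775512-90775541, plus strand: aaaagtacgtaATTAAAtaatgtttttggt

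Of these 8 windows, 6 had AATAAA and 2, both of FAS, had ATTAAA, with the hexamer ending 13 to 18 nt before the 3' end. Searched on the transcribed strand, AATAAA was in 60.6% of the same windows of all 11331 poly(A) regions, ATTAAA without AATAAA in 16.4%, and neither in 23.0%. A match describes the letters in the window only.

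In R749H cells, 5 of the 8 tested genes passed the test, all of them higher. The death receptors TNFRSF10B and FAS, the cell cycle inhibitor CDKN1A, the stress gene SESN1 and the phosphatase gene PPM1D rose by 1.93-fold to 4.48-fold. The differences of GADD45A, BBC3 and MDM2 did not pass the threshold. By the same test, limma with Benjamini-Hochberg adjustment over all genes at 0.05, 10.9% of the 9495 tested genes were higher and 12.9% lower in R749H cells. The median log2 difference of the 8 genes was 1.06.

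**Figure D1:**
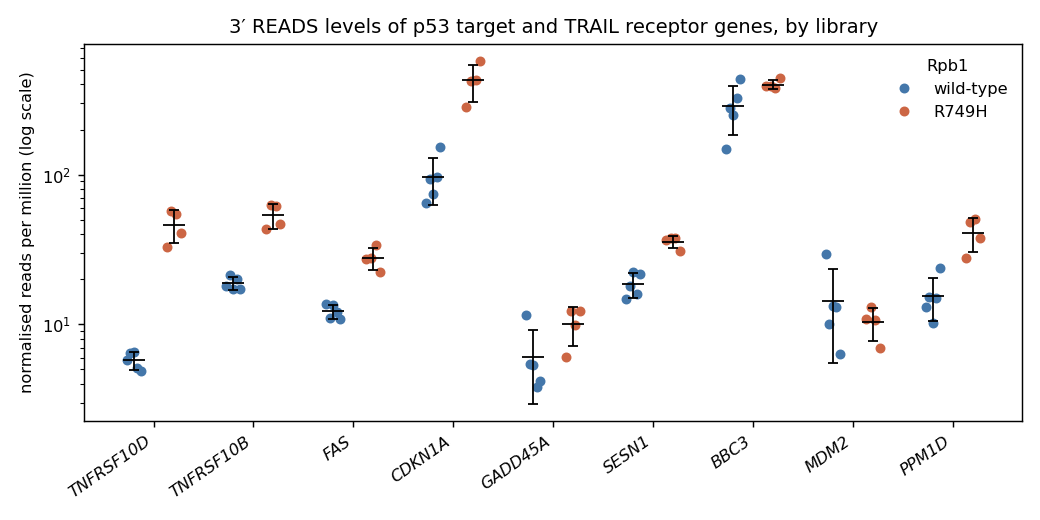
Normalised RPM (log axis) of the 9 genes with reads, with 1 point per library, and the mean and SD of each group in black. The R749H points lie above all wild-type points for TNFRSF10B, FAS, CDKN1A, SESN1 and PPM1D, as for 9.72% of all tested genes. Those of TNFRSF10D do too, but it was chosen because it was higher. The groups overlap for GADD45A, BBC3 and MDM2, and without TMM scaling also for PPM1D.

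Among the TRAIL receptors, TNFRSF10B (TRAIL-R2 or DR5) transmits the death signal. It held 17.9, 21.5, 17.3, 20.2 and 17.3 normalised RPM in wild-type replicates 1 to 5 and 43.5, 62.4, 62.0 and 46.6 in R749H replicates 1 to 4. All R749H libraries were above all wild-type libraries, as for 9.72% of tested genes. Without TMM scaling the share of such genes was 3.91%. The level was 2.81-fold higher (log2 difference 1.49, SE 0.19, 95% CI 1.08 to 1.90, adjusted p = 8.69e-05 by limma). The wild-type libraries lay close together, with a mean of 18.8 ± 1.91 (SD, n = 5), against 53.6 ± 10.0 (SD, n = 4) in R749H cells.

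The decoy receptor gene TNFRSF10D was the least abundant of the 9 genes in wild-type cells. Its wild-type level was 5.76, 6.47, 6.52, 5.10 and 4.90 normalised RPM, from 18 to 56 reads per library. In R749H replicates 1 to 4 it was 32.9, 57.0, 54.8 and 40.8, from 177 to 208 reads. The mean was 5.75 ± 0.754 (SD, n = 5) and 46.4 ± 11.5 (SD, n = 4), a log2 difference of 2.97 (SE 0.23) that is the reason for its choice. In R749H cells its level was thus near that of TNFRSF10B, and the libraries of the 2 genes overlapped there but not in wild-type cells. Its log2 difference was 2.65 to 3.13 under all alternatives, which use the same libraries that chose it and so give no separate support.

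The other decoy receptor gene, TNFRSF10C, lies beside these on chromosome 8 and had 55 reads in all, 0 to 18 per library. It did not pass the filter. No read was found in R749H replicates 3 and 4, where 0 reads allow a level of up to 0.777 and 0.561 RPM without TMM scaling. The sequence of its first poly(A) region occurs 2 times in the genome, so that reads there may be shared. The ligand genes TNFSF10 (TRAIL) and FASLG and the soluble receptor gene TNFRSF11B had no row.

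FAS encodes the receptor of the FAS ligand and also carries a death domain. Wild-type libraries held 13.8, 11.1, 13.4, 12.1 and 10.8 normalised RPM and R749H libraries 27.3, 27.7, 33.8 and 22.4. The groups did not overlap. FAS was 2.25-fold higher in R749H cells (log2 difference 1.17, SE 0.21, 95% CI 0.74 to 1.60, adjusted p = 0.000922 by limma).

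CDKN1A encodes p21, the inhibitor of cyclin-dependent kinases through which p53 arrests the cell cycle. Its wild-type libraries held 64.6, 93.9, 74.4, 96.7 and 152 normalised RPM, and its R749H libraries 284, 419, 427 and 573. The lowest R749H library was above the highest wild-type library, replicate 5. With a 4.48-fold higher level (log2 difference 2.16, SE 0.24, 95% CI 1.66 to 2.67, adjusted p = 2.13e-05 by limma), CDKN1A changed most of the 8 tested genes. A difference at least as large and upward was seen in 0.495% of all tested genes.

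GADD45A, a growth arrest and DNA damage response gene, was sparse. It held 11.5, 5.43, 5.38, 3.82 and 4.20 normalised RPM in wild-type and 6.09, 12.3, 9.85 and 12.2 in R749H libraries. Wild-type replicate 1 lay among the R749H libraries and R749H replicate 1 near the other wild-type libraries, so the groups overlapped. The log2 difference of 0.79 (SE 0.34, 95% CI 0.08 to 1.51) did not pass (adjusted p = 0.0958 by limma). Without wild-type replicate 1 it was 1.05 (adjusted p = 0.0177), and without R749H replicate 1 it was 1.03 (adjusted p = 0.0400), both past the threshold by limma.

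SESN1 encodes sestrin 1, which restrains the growth kinase mTORC1 under stress. Its levels were 14.7, 18.0, 22.5, 15.9 and 21.9 normalised RPM in wild-type and 36.3, 37.8, 37.5 and 30.9 in R749H libraries. The groups did not overlap, and the R749H libraries were the more uniform relative to their mean. SESN1 was 1.93-fold higher (log2 difference 0.95, SE 0.20, 95% CI 0.53 to 1.37, adjusted p = 0.00319 by limma).

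BBC3 encodes PUMA, a BH3-only protein that starts apoptosis at the mitochondria, and had the most reads of the 9 genes in wild-type cells. Its libraries held 148, 280, 251, 325 and 436 normalised RPM in wild-type and 388, 392, 376 and 440 in R749H cells. Wild-type replicate 5 lay within the range of the R749H libraries and wild-type replicate 1 was far lower. The log2 difference of 0.55 (SE 0.23, 95% CI 0.06 to 1.05) did not pass (adjusted p = 0.0955 by limma). It passed without wild-type replicate 5 (0.72, adjusted p = 0.0199 by limma).

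MDM2 and PPM1D act back on p53. MDM2 held 29.4, 10.0, 13.2, 13.0 and 6.30 normalised RPM in wild-type and 10.8, 13.1, 10.6 and 6.92 in R749H libraries, with every R749H library within the wild-type range. Its log2 difference was -0.32 (SE 0.35, 95% CI -1.06 to 0.42, adjusted p = 0.541 by limma), an interval that ends below the estimate of every one of the 5 genes that rose. Without wild-type replicate 1, the highest library, the log2 difference was -0.02. The annotated end of MDM2 lies 5695 nt from the stop codon, beyond the 5 kb in which ends were assigned, and the antisense gene CPM overlaps its 3' UTR. MDM2 levels therefore count only ends up to that limit.

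PPM1D encodes the phosphatase WIP1, which removes activating phosphates from p53 and its kinases. Wild-type libraries held 13.1, 15.2, 10.3, 15.1 and 23.8 normalised RPM and R749H libraries 27.6, 47.9, 50.6 and 37.6. The groups were separate, though only narrowly between wild-type replicate 5 and R749H replicate 1, and these libraries overlapped without TMM scaling. PPM1D was 2.66-fold higher (log2 difference 1.41, SE 0.25, 95% CI 0.88 to 1.95, adjusted p = 0.00107 by limma).

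**Figure D2:**
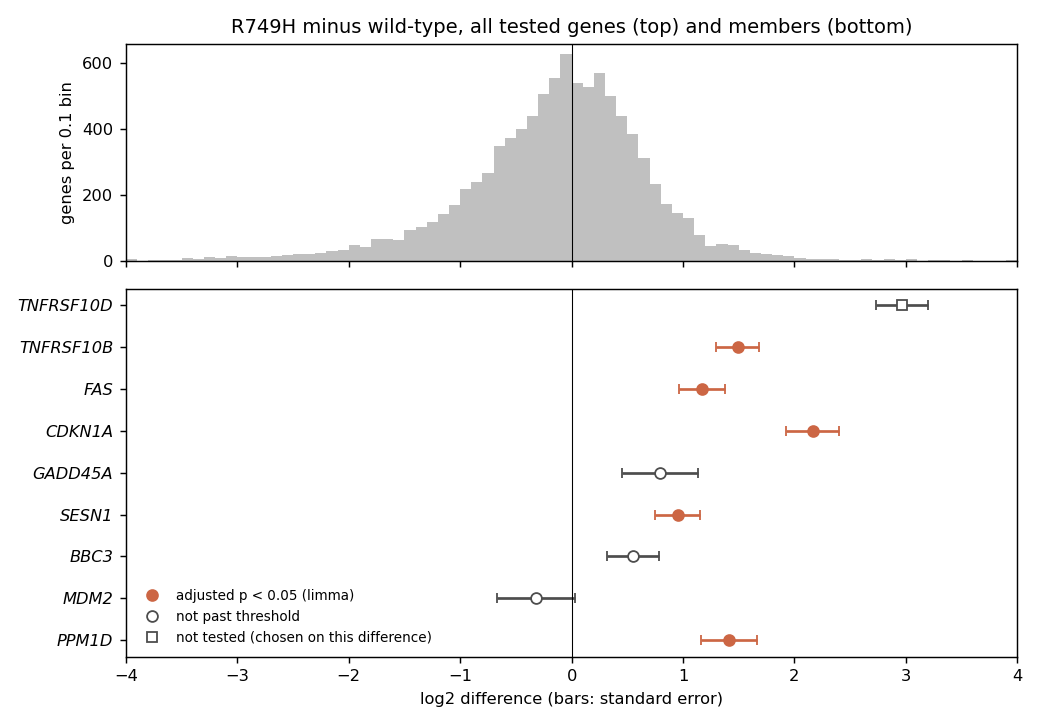
Log2 differences between R749H and wild-type cells. The top panel counts all tested genes within 4 log2 units of 0 in bins of 0.1. The bottom panel gives the 9 genes with standard errors, filled where the adjusted p was under 0.05 by limma. The square, TNFRSF10D at 2.97, was not tested, and only MDM2 lies below 0.

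Some libraries were at the edge of their group for several of these genes. Wild-type replicate 5 was the highest wild-type library for CDKN1A, PPM1D and BBC3. R749H replicate 1 was the lowest R749H library for CDKN1A, TNFRSF10B, TNFRSF10D, PPM1D and GADD45A. All 5 genes that rose did so under each of the 19 alternatives, also without wild-type replicate 1 and R749H replicate 3 together, where the log2 differences were 2.04 for CDKN1A, 1.42 for TNFRSF10B, 1.28 for PPM1D, 1.14 for FAS and 0.87 for SESN1. The log2 difference of TNFRSF10D, which was chosen from these same libraries, was then 2.90.

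The order of the levels changed between the cell lines. In wild-type cells it was BBC3, CDKN1A, TNFRSF10B, SESN1, PPM1D, MDM2, FAS, GADD45A and TNFRSF10D, and the only neighbours in this order whose libraries did not overlap were CDKN1A (lowest 64.6) and TNFRSF10B (highest 21.5). In R749H cells it was CDKN1A, BBC3, TNFRSF10B, TNFRSF10D, PPM1D, SESN1, FAS, MDM2 and GADD45A. There the gaps lay between BBC3 (lowest 376) and TNFRSF10B (highest 62.4) and between FAS (lowest 22.4) and MDM2 (highest 13.1). Among all tested genes, TNFRSF10D stood at the 27.5th percentile in wild-type and the 76.1st in R749H cells. CDKN1A stood at the 86.9th and the 96.7th, and MDM2 at the 51.6th and the 45.1st.

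Most of these genes used a single poly(A) region, defined as 3' ends joined at spacings of no more than 24 nt. The region 1531 nt downstream of the stop codon held 98.9% of CDKN1A reads in wild-type and 98.6% in R749H cells. The region at 877 nt held nearly all BBC3 reads, and that at 2277 nt held 99.6% of TNFRSF10D reads in both groups. SESN1 ended at 1100 nt (95.6% and 97.1%) and PPM1D at 921 nt (96.2% and 97.8%), although their annotated ends lie 3235 and 2728 nt from the stop codon. The short ends of SESN1 and PPM1D were thus the main ends in both cell lines.

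TNFRSF10B and FAS each had a pair of tandem regions with at least 10% of their reads in either group. TNFRSF10B had 7 regions in all, and the pair held 90.5% of its reads. Among its lesser ends, that at 323 nt held 6.06% of wild-type and 2.31% of R749H reads. TNFRSF10B ended at 221 nt in 11.1% ± 7.02 of wild-type (SD, n = 5) and 10.1% ± 4.26 of R749H reads (SD, n = 4), and at 2533 nt in 77.0% ± 8.91 and 82.2% ± 2.86. The receptor transcript therefore mostly carried the long 3' UTR in both groups. The upstream end of FAS, at 652 nt, held 6.98%, 9.43%, 9.76%, 18.0% and 8.06% of its reads in wild-type and 10.2%, 15.8%, 33.1% and 13.4% in R749H libraries. R749H replicate 3 had the highest share and the groups overlapped. The rest of FAS ended nearly all at 1334 nt, with 87.7% ± 4.70 and 79.7% ± 8.89.

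Use of the regions was tested as log2 odds of the reads in a region against the other reads of its gene, for 6 regions of 4 of these genes. None of the 6 passed by limma, where 0.0971% of all 9265 tested regions did. An unadjusted p under 0.05 was seen for 0 of the 6 and for 1234 of the 9265. The log2 odds differed by 0.81 (SE 0.50, 95% CI -0.31 to 1.92, adjusted p = 0.505 by limma) for FAS at 652 nt. They differed by 0.40 (95% CI -0.60 to 1.40, adjusted p = 0.716) for TNFRSF10B at 2533 nt and by -0.05 (95% CI -1.36 to 1.27, adjusted p = 0.977) at 221 nt. These intervals allow differences of more than 1 log2 unit, so the depth limits what can be said. For GADD45A at 556 nt (79.9% ± 12.6 and 92.9% ± 5.84 of reads) the difference was 1.80 (95% CI -0.36 to 3.97, adjusted p = 0.441), and for MDM2 at 4336 nt (87.9% ± 5.35 and 86.2% ± 9.09) it was -0.19 (95% CI -1.38 to 1.01, adjusted p = 0.893).

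Within a region, the 3' ends were spread over a few nt. The most used end held 70.6% ± 2.09 of the CDKN1A region in wild-type and 70.2% ± 1.99 in R749H cells, and 87.4% ± 2.36 and 88.1% ± 2.32 of the BBC3 region. The ends of MDM2 and GADD45A were the most scattered, with 22.6% and 42.4% at the most used end in wild-type cells. The read-weighted mean position, a measure chosen after the data were seen, was 1.04 nt further upstream in R749H cells for MDM2 (SE 0.33, adjusted p = 0.743 by limma) and 0.80 nt for GADD45A (SE 0.33, adjusted p = 0.778). It differed by -0.12 to 0.07 nt for the other 6 tested genes. None of these 8 genes passed by limma, where 0.0291% of 6867 tested regions did. MDM2 and GADD45A had an unadjusted p under 0.05, as had 433 of the 6867 regions. The mean position of TNFRSF10D, not tested, was -0.83 nt from its most used end in wild-type and -1.11 nt in R749H cells.

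**Figure D3:**
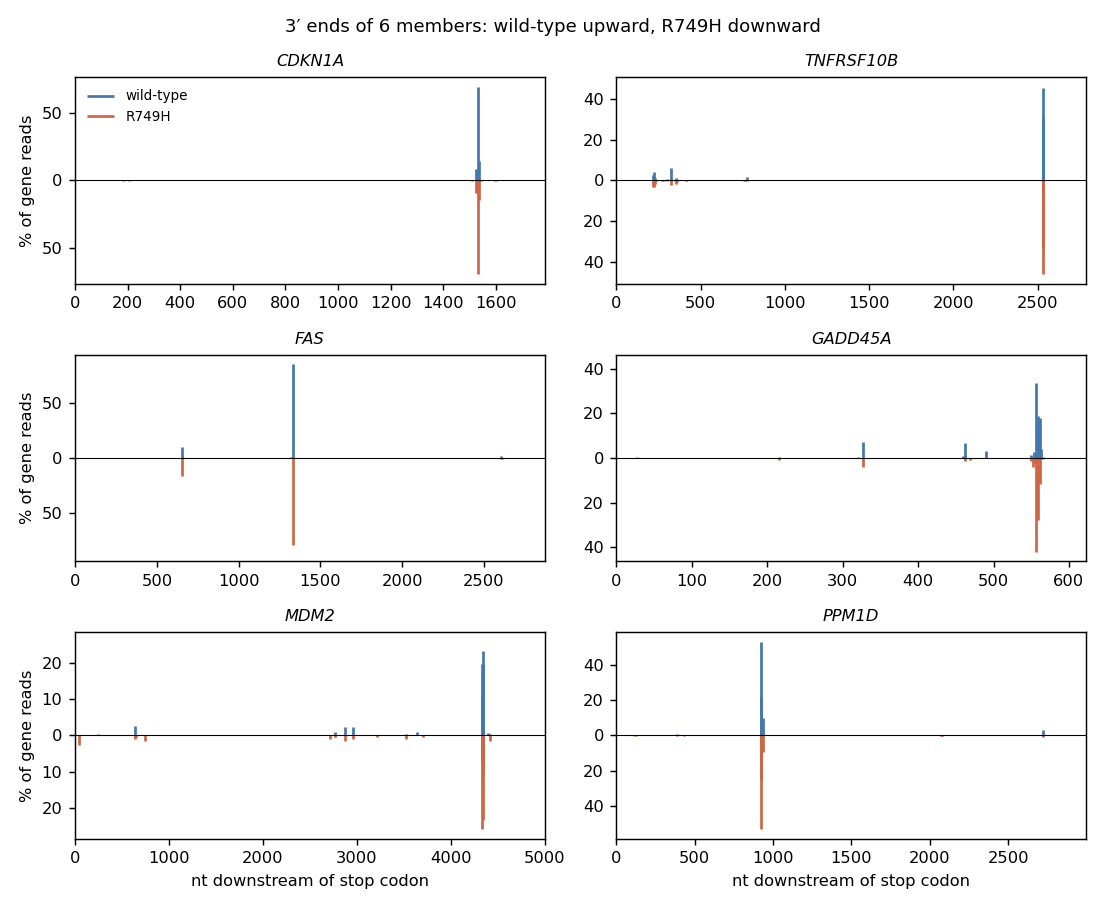
Mean share of a gene's reads at each 3' end (y, percent) by distance from the stop codon (x, nt), with wild-type upward and R749H downward. Most 3' ends of CDKN1A and PPM1D form a single dense group, and most of those of TNFRSF10B and FAS a near and a far group. The tallest groups lie at like distances upward and downward.

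Other p53 targets were taken from a list of 53 well-known targets. This list and those further below were written with earlier results of these data known, so their counts are descriptions and no test. Apart from the genes above, 41 of 43 were listed and 35 passed the filter. Of these, 18 rose, 1 fell and 16 did not pass, where 10.9% of all tested genes were higher and 12.9% lower. Under the authors' scaling alone 15 rose and 4 fell. Their median log2 difference was 0.84, against -0.07 over all tested genes. Under the alternatives 15 to 19 rose and the median was 0.53 to 0.92. The gene that fell, CES2 (-1.28, SE 0.39, adjusted p = 0.0270 by limma), a carboxylesterase gene, lies outside the rule for named genes and was chosen after its value was seen. It passed under 11 of the 19 alternatives. CES2 held 3.15 to 6.69 normalised RPM in wild-type and 1.33 to 3.13 in R749H libraries, and passed the filter only through the wild-type libraries.

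The named targets that passed had different roles. The kinase gene PLK3 went from 3.04 ± 0.688 to 17.6 ± 4.76 normalised RPM (log2 difference 2.48, SE 0.29), the largest difference of the tested targets. SERTAD1, a transcription cofactor, went from 76.9 ± 6.21 to 325 ± 110 (2.01, SE 0.21, adjusted p = 1.28e-05 by limma), the smallest p of the p53 target list. The antiproliferative BTG2 was higher by 1.67, the polo-like kinase gene PLK2 by 1.55, the receptor tyrosine kinase gene EPHA2 by 1.67, the stress transcription factor gene ATF3 by 1.04 and the AKT repressor gene PHLDA3 by 0.92 on the log2 scale. All 7 passed by limma. ATF3 did not pass without R749H replicate 2 (0.93, adjusted p = 0.0746) or 4 (0.83, adjusted p = 0.0812), nor under the authors' scaling alone (0.72, adjusted p = 0.0871), and the others passed under each alternative.

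Among the other named targets that passed, TP53I3, a quinone oxidoreductase gene, was higher by 2.33, FDXR, the ferredoxin reductase gene, by 1.55 and TIGAR, which lowers glycolytic flux, by 1.35 on the log2 scale. Of the nucleotide excision repair genes, XPC was higher by 1.31 and DDB2 by 0.84. The ribosomal protein paralog gene RPS27L was higher by 1.18, the F-box protein gene FBXO22 by 1.86, the caspase-2 activator gene PIDD1 by 0.99, the exonuclease gene AEN by 0.90 and the apoptosis inhibitor gene TRIAP1 by 0.87. All of these passed by limma, and under each alternative except for DDB2, which did not pass without R749H replicate 3 (0.72, adjusted p = 0.0521), under the authors' scaling alone (0.53, adjusted p = 0.106) or without wild-type replicate 1 and R749H replicate 3 together (0.51, adjusted p = 0.0675).

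Other targets did not pass. The apoptosis genes BAX (log2 difference -0.13, adjusted p = 0.769 by limma) and PMAIP1 (0.26, adjusted p = 0.260), the cytokine gene GDF15 (0.23, adjusted p = 0.458) and cyclin G1, CCNG1 (-0.53, adjusted p = 0.158), were named after their values were seen. PMAIP1 encodes NOXA and was abundant, with 1203 ± 93.2 normalised RPM in wild-type and 1461 ± 283 in R749H cells.

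**Figure D4:**
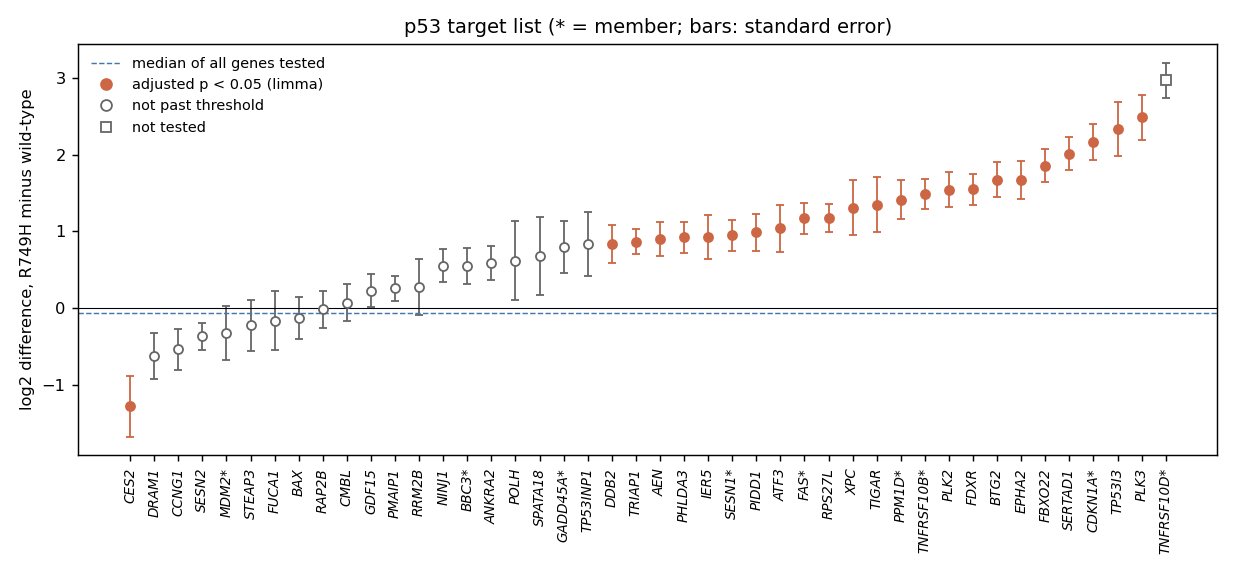
Log2 differences between R749H and wild-type cells for the tested genes of the p53 target list, in rising order, with standard errors. Filled points passed by limma, stars mark the genes this report is about, the square is TNFRSF10D, and the dashed line is the median of all tested genes at -0.07. MDM2, BAX and CCNG1 lie at the low end among genes that did not pass.

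Of 13 tested genes that act on p53, 2 rose and 1 fell, again beside 10.9% higher and 12.9% lower of all tested genes. PPM1D, already counted above, was among the 2 that rose. The gene that fell was TP53BP1 (by 0.78 on the log2 scale, adjusted p = 0.0389 by limma), chosen after its value was seen, which passed under 8 of 19 alternatives. The median log2 difference of the 13 genes was -0.23. Among the rest, the p53 inhibitor gene MDM4 was at -1.26 (adjusted p = 0.0748) and was named after its value was seen.

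In the TRAIL and FAS pathway, 14 genes other than TNFRSF10D were tested. Of these, 3 rose and 1 fell, beside 10.9% higher and 12.9% lower of all tested genes. TNFRSF10B and FAS, already counted above, were among the 3 that rose. BCL2, an inhibitor of apoptosis, fell from 3.47 ± 0.660 to 1.08 ± 0.649 normalised RPM (log2 difference -1.76, SE 0.50, adjusted p = 0.0184 by limma). BCL2 was sparse, with 128 reads in all libraries together. It passed the filter on low values only through the wild-type libraries, at 2.61 to 4.37 normalised RPM. The R749H libraries held 0.532 to 1.84, so its test is not independent of the group where BCL2 is high. Its lowest R749H level, 0.532, lay within the 0.463 to 0.777 RPM, without TMM scaling, that 0 reads allow in R749H libraries. It did not pass without R749H replicate 2 (-1.52, adjusted p = 0.0549), without wild-type replicate 4 (-1.72, adjusted p = 0.0583) or with the replicate block (-1.68, adjusted p = 0.0696). Caspase-8, which the death receptors recruit, had a CASP8 level of 9.13 ± 6.08 in wild-type and 9.48 ± 5.42 in R749H cells (log2 difference 0.09, adjusted p = 0.889). The median over the 14 genes was 0.17, and 2 to 4 were higher and 0 to 2 lower under the alternatives.

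Of 5 tested markers of HEK293 cells, 1 passed higher and 1 lower by limma, with a median log2 difference of 0.38. Of all tested genes, 10.9% were higher and 12.9% lower. The marker that was lower was VIM, an intermediate filament gene, with a log2 difference of -0.66 (adjusted p = 0.0194 by limma). Without R749H replicate 2 this difference was -0.63 (adjusted p = 0.0627 by limma). The part of VIM in the differences above was not tested.

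The pattern of TNFRSF10D over the 9 libraries, in log2 RPM, was most like those of GPX3 (Pearson's r = 0.993), P2RX5 (r = 0.992) and TSTD1 (r = 0.990). These libraries share their grouping and depth. TNFRSF10D was chosen for its difference between the groups, so genes picked for likeness to it differ between the groups through that choice. GPX3 was at 0.700 ± 0.172 and 5.59 ± 1.35 normalised RPM in wild-type and R749H cells, P2RX5 at 19.8 ± 1.18 and 43.4 ± 2.69, and TSTD1 at 158 ± 5.73 and 284 ± 25.9. The wild-type mean of GPX3 lay within the 0.296 to 1.21 RPM, without TMM scaling, that 0 reads allow in wild-type libraries.

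The neighbours of the receptor genes on chromosome 8 had smaller or downward differences. Of 17 tested genes with stop codons within 2 Mb of that of TNFRSF10D, other than the receptors, 3 passed by limma, all of them lower, where 12.9% of all tested genes were lower and 23.9% passed in either direction. Their log2 differences were -4.79 to 0.36, with a median of -0.24. The downstream end of TNFRSF10B overlaps RHOBTB2 on the other strand, a gene with a log2 difference of -1.01 (adjusted p = 0.0747). Of 13 tested neighbours of MDM2, 4 passed, all of them lower, with a median of -0.56, and the median over chromosome 12 was -0.16. Near FAS, 1 of 10 genes was higher, ACTA2, the smooth muscle actin gene (2.22, adjusted p = 0.000126), which was chosen after its value was seen. The median log2 difference of neighbours was 0.32 for CDKN1A (29 genes), 0.12 for SESN1 (15 genes), 0.04 for PPM1D (19 genes), -0.05 for BBC3 (79 genes) and -0.55 for GADD45A (5 genes).

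**Figure D5:**
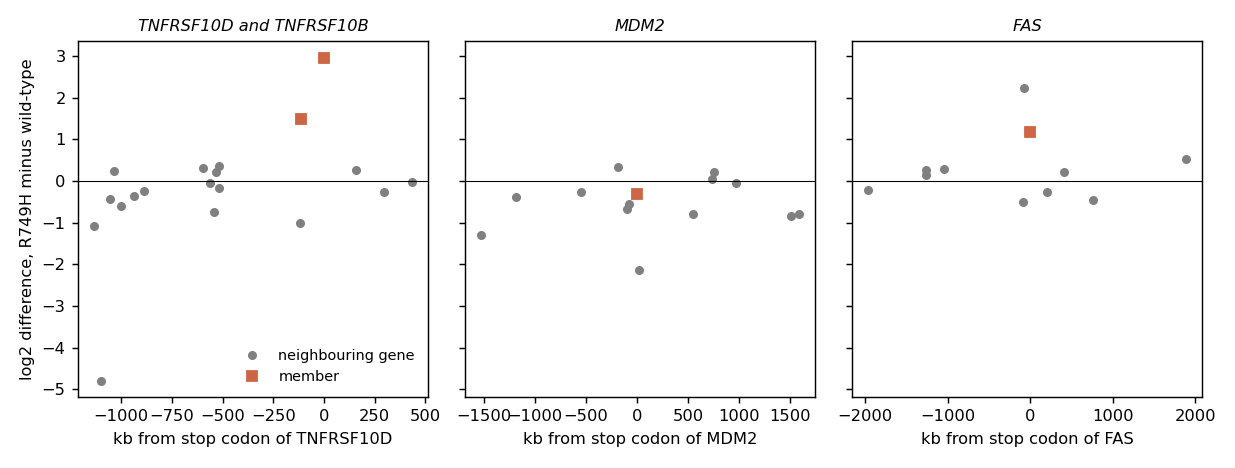
Log2 difference between R749H and wild-type cells (y) of tested genes by the distance of their stop codons, in kb (x), from those of TNFRSF10D, MDM2 and FAS. Squares are the genes this report is about, and grey points are their neighbours. TNFRSF10D, which was chosen because it was higher, and TNFRSF10B lie above all their neighbours, and MDM2 lies among its own.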

How the data were processed

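3' READS libraries of 5 wild-type and 4 R749H replicates were analysed. The signal values are, as deposited by the authors, reads per 3' end isoform scaled to 7 M poly(A) reads per library. Per the study's methods, reads were trimmed, mapped to hg19, kept if they ended in non-templated As and each 3' end was given to the CCDS stop codon found within 5 kb before it. The submitters' processing notes name Bowtie2 2.3.2. Files of pooled replicates were not used, and the eNETseq libraries were not analysed here.

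Dividing by the smallest step returned whole reads for 100% of values in every library, within 0.006 scaled reads. Reads were summed per gene name, scaled by TMM and filtered with filterByExpr (edgeR 4.0.16). Log2 RPM (prior count 0.5) were tested with limma 3.58.1 in R 4.3.3, with trend, two-sided, because the deposited values are scaled. The Benjamini-Hochberg adjustment covered all genes, and the threshold was 0.05. Poly(A) regions joined 3' ends at most 24 nt apart. Regions with 5% to 95% of the reads of a gene were tested where the gene averaged 20 or more reads, as log2 odds, with 0.5 reads added. Annotation was from GENCODE lifted to GRCh37, and sequences were from that genome. The tests were tried on simulated data. Reads without molecular identifiers carry more than counting error. The alternatives included DESeq2 1.42.0, voom and edgeR's quasi-likelihood test on the recovered reads, which called 1107 genes higher and 1251 lower in R749H cells.

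The genes and lists were chosen with earlier results of these data known. Named beside them were TNFSF10, TNFRSF10C, CASP8, up to 20 listed genes with the smallest p past the threshold, the 3 genes most correlated with TNFRSF10D, and regions with at least 10% of a gene's reads in either group. Some genes of the lists are not reported here. Genes named outside this rule are marked.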

Additional observations from a re-analysis of the deposited data

Results flagged for a closer look

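Of 40 groups of values of the genes above, 6 had a library far from the others by Dixon's criterion, where chance gives about 1 in 20. The GADD45A level of wild-type replicate 1 was 11.5 normalised RPM, against 3.82 to 5.43 in the other wild-type libraries. The FAS end at 652 nt held 18.0% of the gene's reads in wild-type replicate 4, against 6.98% to 9.76% in the others. The PPM1D region at 921 nt held 82.9% in wild-type replicate 1, against at least 98.2% in the others. The remaining 3 were shares near 100%, where a single read or a few make the gap: 98.2% for TNFRSF10D at 2277 nt in wild-type replicate 4, and 99.97% and 99.9% for BBC3 at 877 nt in wild-type replicate 4 and R749H replicate 1, with 100% in every other library of the group.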

How the results depend on the processing

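CDKN1A, TNFRSF10B, FAS, PPM1D and SESN1 stayed higher and past the threshold under all 19 alternatives. The log2 difference of GADD45A passed with voom weights (0.90, adjusted p = 0.0440) and without wild-type replicate 1 and R749H replicate 3 (1.07, adjusted p = 0.0181), and was 0.65 to 1.05 with 1 library left out. That of BBC3 was 0.33 to 0.72 with 1 library left out. The replicate block drops wild-type replicate 5, which has no partner, and gave 0.72 for BBC3 (adjusted p = 0.0138). Same-numbered libraries did not deviate together (correlations of -0.07 to 0.05), so the numbers are not taken as pairs, and the replicate block changed no other call of the 8 tested genes, and among the named others ended those of BCL2 and TP53BP1. Of 25 other genes called in the lists, 15 passed under every alternative. The authors' scaling alone gave 460 genes higher and 2482 lower (15.6% of calls higher, against 45.8% of 1037 higher and 1228 lower with TMM). The cause was not tested. Counts of regions with changed usage were 9 in the main test, 23 with at least 50 reads, 0 of 1661 at an unadjusted p under 0.05 with at least 5 reads, 0 of 1072 with the replicate block, and 0 to 10 with 1 library left out, by limma. Regions with a changed mean end position numbered 2, 1 with at least 50 reads, and 1 to 2 with 1 library left out. Small differences turned sign with 1 library left out: the log2 odds ranged from -0.36 to 0.27 for TNFRSF10B at 221 nt and -0.45 to 0.25 for MDM2, and the mean end position from -0.27 to 0.17 nt for PPM1D, -0.024 to 0.080 nt for CDKN1A and -0.015 to 0.00041 nt for BBC3. Of the listed genes, 0 to 4 p53 targets and 0 to 4 genes acting on p53 were lower. The deposited values give each 3' end to the closest upstream gene only, so 0 ends had more than 1 gene and shared ends could not be checked. Thinning, leaving out 2 libraries and the end position were chosen after the data were seen. TNFRSF10D and GADD45A rest on as few as 18 and 24 reads in a library, and BCL2 on 128 reads in all libraries together.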
